A study of Mus musculus with 12 samples.

Results

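Messenger RNA of 10 nuclear receptors that govern lipid, bile acid, drug and hormone metabolism in the liver was followed in db/db mice given molecular hydrogen (H2). The receptors were Ppara, Ppard, Pparg, Rxra, Nr1h3, Nr1h4, Nr1i2, Nr1i3, Hnf4a and Thrb. They were represented by every non-control probe whose RefSeq record belongs to one of these genes, which gave 16 of the 39429 probes on the array, and 10 of the 20283 genes that have a probe. No measured value entered that choice. All 16 probes exceeded background for both dyes on each of the 12 arrays. Ppara had 3 probes, Rxra, Nr1h3, Nr1i3 and Thrb had 2 each, and the other receptors had 1 each. The Pparg probe was printed as 10 spots on every array.

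Male db/db mice, 8 weeks of age, lack a working leptin receptor and become obese and diabetic, and all treated and control animals carried that mutation. MgH2, which gives off H2 in the stomach, was given by gavage for 1, 3 or 7 days against Mg(OH)2, and H2-water, drinking water holding 0.8 mM dissolved H2, was given for 14 days against degassed water. The labels give the MgH2 dose as 0.9 mg/kg once daily, as does the study's legend for a blood measurement at the same days, whereas its methods section names other doses. Each of the 12 arrays set 1 liver RNA pool of H2-treated mice, labelled with Cy5, against 1 pool of control mice, labelled with Cy3. There were 3 arrays for each of the 4 groups, and each pool held 3 mice. The dyes were never exchanged, and dye bias at a probe is therefore part of its ratio. H2-water and MgH2 differ in agent, duration, slide, scan day and Feature Extraction version, which cannot be told apart. Among the MgH2 arrays, that of replicate 3 at 7 days was alone on its slide and on its scan day.

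Nuclear receptors are transcription factors switched by small lipophilic ligands. The PPAR receptors bind fatty acids, the LXR receptor encoded by Nr1h3 binds oxysterols, the FXR receptor encoded by Nr1h4 binds bile acids, PXR (Nr1i2) and CAR (Nr1i3) answer drugs and other foreign compounds, and the receptor encoded by Thrb binds thyroid hormone. Most of them bind DNA as a pair with the retinoid X receptor that Rxra encodes, whereas HNF4 alpha, which keeps hepatocyte genes on, binds as a pair with itself. Their DNA sites are built from copies of the hexamer AGGTCA.

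The promoters of the 4 receptors on which the results turn are shown as the 250 bases before an annotated start, so that the hexamer can be seen in its place. Sequences are from RefSeq, build GRCm38.p6, and run 5′ to 3′ on the strand of the gene. The capitals mark AGGTCA or its reverse complement TGACCT.
Ppara, chr15:85735526-85735775, plus strand: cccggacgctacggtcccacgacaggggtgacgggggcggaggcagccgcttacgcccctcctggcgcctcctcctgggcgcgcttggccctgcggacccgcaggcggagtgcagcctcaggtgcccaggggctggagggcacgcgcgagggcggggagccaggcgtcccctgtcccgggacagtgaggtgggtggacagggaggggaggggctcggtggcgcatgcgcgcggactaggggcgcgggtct
Pparg, chr6:115360894-115361143, plus strand: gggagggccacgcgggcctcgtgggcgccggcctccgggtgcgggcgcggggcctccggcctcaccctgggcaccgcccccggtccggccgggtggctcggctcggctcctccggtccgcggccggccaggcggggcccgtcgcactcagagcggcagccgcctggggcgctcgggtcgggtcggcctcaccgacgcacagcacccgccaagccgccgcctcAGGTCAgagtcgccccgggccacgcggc
Pparg, chr6:115362099-115362348, plus strand: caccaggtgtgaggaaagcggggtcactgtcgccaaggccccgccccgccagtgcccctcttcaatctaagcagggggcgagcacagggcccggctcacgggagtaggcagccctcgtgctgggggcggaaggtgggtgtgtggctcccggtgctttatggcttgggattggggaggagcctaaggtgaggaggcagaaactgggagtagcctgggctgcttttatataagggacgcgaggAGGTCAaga
Hnf4a, chr2:163506607-163506856, plus strand: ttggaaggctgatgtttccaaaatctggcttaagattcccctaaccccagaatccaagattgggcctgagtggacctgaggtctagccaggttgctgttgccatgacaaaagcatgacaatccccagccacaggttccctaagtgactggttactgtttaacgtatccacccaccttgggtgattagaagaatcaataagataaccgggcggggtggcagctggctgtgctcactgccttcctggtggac
Thrb, chr14:17660710-17660959, plus strand: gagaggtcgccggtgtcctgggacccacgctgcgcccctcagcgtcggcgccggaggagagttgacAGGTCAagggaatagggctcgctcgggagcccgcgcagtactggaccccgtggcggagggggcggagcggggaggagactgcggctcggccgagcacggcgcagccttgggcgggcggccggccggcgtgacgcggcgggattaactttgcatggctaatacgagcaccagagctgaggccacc
The Thrb promoter held 1 hexamer, whose first base lies 184 bases before the start. The Pparg promoters shown held 1 each, at 28 and 9 bases before their starts. Ppara and Hnf4a held none in these windows. Pparg, Hnf4a and Thrb each have 1 further annotated start, not shown, that held none. Of the 16 annotated starts of the 10 receptors, 5 held a hexamer, in 4 genes (Pparg, Rxra, Nr1h4 and Thrb), against 14% of all 32851 mouse starts searched in the same way. The match of 6 letters is a description of these windows and not evidence of binding.

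Changes are given as the log2 of the Cy5 over the Cy3 signal, so that 0 is no difference from the control pool on the same array and a positive value is a higher level after H2. Each group mean was tested against 0 with limma, fitted across all probes and all 12 arrays, and a probe was called when its Benjamini-Hochberg adjusted p was under 0.05. Where a receptor had several probes, the brightest one on average was counted. On these arrays 51.8 to 56.5% of spots were above background for both dyes, none was saturated, and the Cy5 total was 1.01 to 1.03 times the Cy3 total. Same-numbered control channels of the 1, 3 and 7 day arrays deviated together (r from 0.32 to 0.67 over 9 pairs), which the Cy5 channels did not (r from -0.30 to 0.18). The labels name a control for each day, and whether these controls were the same RNA cannot be told here, so the MgH2 groups are given side by side.

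Hepatic Thrb was lower after 3 and 7 days of MgH2, and Hnf4a was lower after 14 days of H2-water. These were the called receptors. After 1 day of MgH2, limma called 0 of the 10 receptors, beside 9.39% of all probes tested, and 1 of them (Hnf4a) had an unadjusted p under 0.05. After 3 days it called 1 of 10 (Thrb, lower) beside 23.4% of all probes. After 7 days it called 1 of 10 (Thrb, lower) beside 29.5% of all probes. After 14 days of H2-water it called 1 of 10 (Hnf4a, lower) beside 8.84% of all probes. The share of receptors called was thus below that of all probes in the 1, 3 and 7 day groups and near it at 14 days. Counts of 0 and 1 among 10 receptors are too small to set their share apart from that of all probes, which was not tested. The median log2 ratio over the 10 receptors was -0.0027 at 1 day, -0.03 at 3 days, 0.0059 at 7 days and -0.02 at 14 days, beside -0.0033, 0.0022, 0.0061 and -0.0049 over all probes tested. Between 4 and 6 receptors lay above 0 in each group. The largest group mean of any receptor was 0.28 in size, that of Ppara at 14 days, which did not pass the test.

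**Figure D1:**
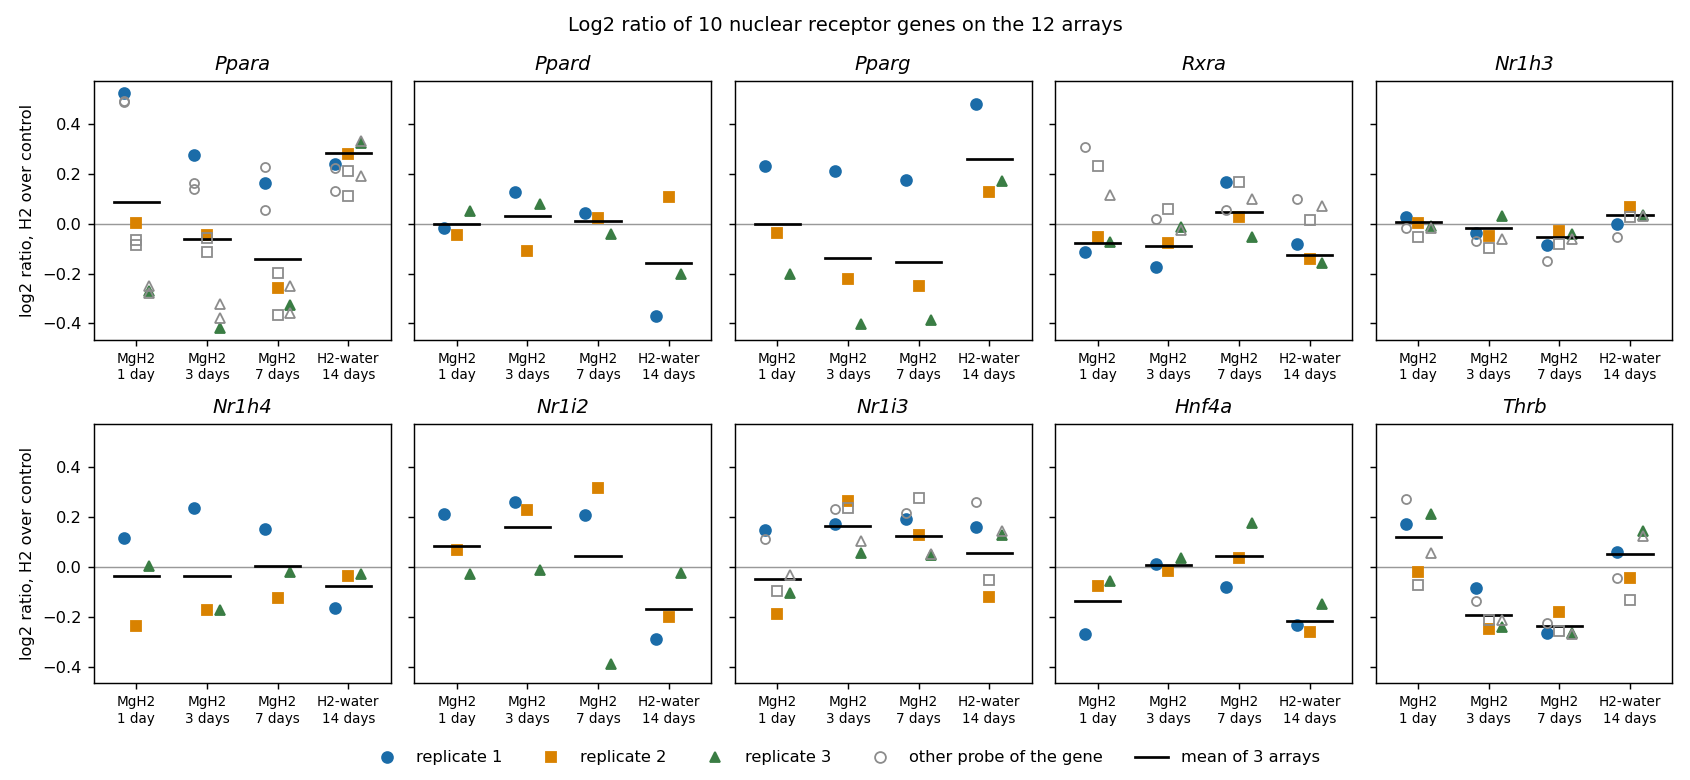
Log2 ratio of H2 over control for each of the 10 receptors (y axis, log2 units) in the 4 groups (x axis). Each filled point is 1 array by replicate number, open points are the other probes of the gene and the bar is the mean of 3 arrays. Thrb lies below 0 on all 6 arrays of 3 and 7 days, and Ppara spans 0.53 to -0.27 at 1 day but 0.24 to 0.33 at 14 days.

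Ppara encodes the receptor that turns on fatty acid oxidation during fasting. Its log2 ratios on replicates 1, 2 and 3 were 0.53, 0.0016 and -0.27 after 1 day of MgH2. They were 0.27, -0.04 and -0.42 after 3 days and 0.16, -0.26 and -0.33 after 7 days. Replicate 1 was the high array and replicate 3 the low array in all 3 MgH2 groups, and the arrays lay on both sides of 0. After 14 days of H2-water the ratios were 0.24, 0.28 and 0.33, all above 0. The mean at 14 days was 0.28 (SE 0.157 from limma, 95% interval -0.07 to 0.63, n = 3), with a limma adjusted p of 0.312. That SE rests on a spread shared by all 12 arrays, among them the MgH2 groups (SD 0.405, 0.346 and 0.265 at 1, 3 and 7 days). The ratios of 14 days themselves had an SD of 0.0431. With only the arrays of that group fitted, Ppara was not called either. The other probes of Ppara gave 0.26 and 0.15 at 14 days, also uncalled. Their ratios followed those of the counted probe across the 12 arrays, with r of 0.98 for both.

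The spread of Ppara between MgH2 arrays lay in the control channel. As a share of the summed signal of its channel (ppm), the control level of Ppara was 110.0 to 110.7 ppm in replicate 1 of 1, 3 and 7 days, 143 to 149 in replicate 2 and 146 to 181 in replicate 3. The H2 pools were closer together, with 138 to 156 at 1 day, 132 to 136 at 3 days and 115 to 122 at 7 days. On the log2 scale the control pools differed between replicate numbers within a day with an SD of 0.308, pooled over the 3 MgH2 days, and between days within a replicate number with an SD of 0.0932. For the H2 pools these values were 0.0579 and 0.162. In a comparison of the Cy5 channel alone between days, chosen after seeing the data, Ppara was lower at 7 days than at 1 day (difference -0.27, limma adjusted p = 0.0229), and the same comparison of the Cy3 channel gave -0.05 (limma adjusted p = 1). With the ratios, the difference was -0.23 (95% interval -0.71 to 0.26) with a limma adjusted p of 0.571. The share of all probes called in a single channel is not given.

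Pparg encodes the fat-storing receptor, which is low in lean liver and known to rise in fatty liver. Its log2 ratios were 0.23, -0.04 and -0.20 after 1 day, 0.21, -0.22 and -0.40 after 3 days and 0.18, -0.25 and -0.39 after 7 days of MgH2. The order of the replicates was that of Ppara in each MgH2 group. The 10 spots of a single array differed by an SD of 0.0197 to 0.0368, so the spread between arrays was not a spread between spots. After 14 days the ratios were 0.48, 0.13 and 0.17, all above 0, with a mean of 0.26 (95% interval -0.05 to 0.57, limma adjusted p = 0.287). The control level of Pparg was 17.6 to 18.5 ppm in replicate 1 of the MgH2 days, 21.4 to 22.7 in replicate 2 and 24.7 to 26.4 in replicate 3. The control ranges of the 3 replicate numbers did not overlap. The H2 pools ranged from 17.5 to 22.3.

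**Figure D2:**
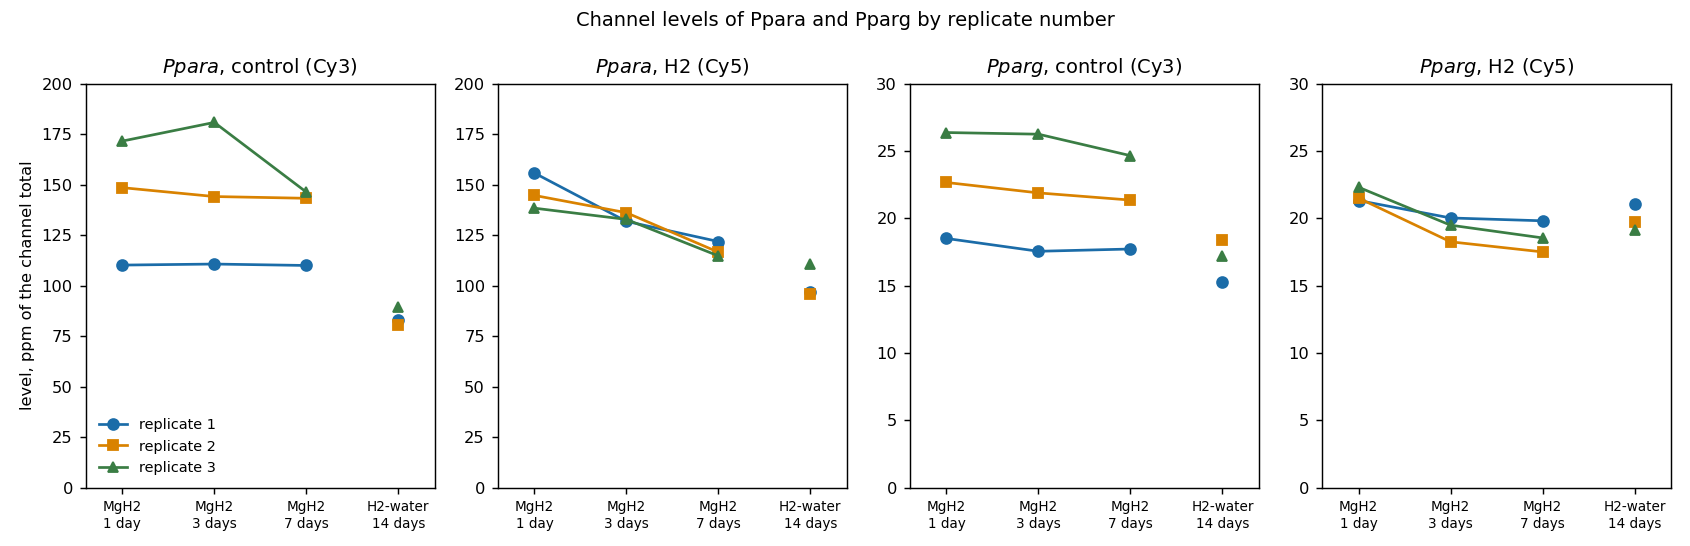
Level of Ppara and Pparg in the control channel (Cy3) and the H2 channel (Cy5) of each array, in ppm of the channel total (y axis from 0), by group (x axis). Points are single arrays and lines join the same replicate number over the MgH2 days, not the same animals. On the MgH2 days, control pools of Pparg separate by replicate number. For Ppara, replicate 1 (near 110) lies below replicates 2 (143 to 149) and 3 (146 to 181), which overlap. The H2 pools of a day lie together.

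Ppard encodes the third PPAR, found in most tissues. Its ratios lay between -0.11 and 0.13 on the 9 MgH2 arrays. At 14 days they were -0.37, 0.11 and -0.20, on both sides of 0. The mean was -0.16 (95% interval -0.33 to 0.02, limma adjusted p = 0.253).

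Rxra, the common partner, gave different answers at its 2 probes. The counted probe (A_51_P307370) read -0.11, -0.05 and -0.07 at 1 day, and -0.08, -0.14 and -0.16 at 14 days, all below 0. It read -0.17, -0.08 and -0.01 at 3 days and 0.17, 0.03 and -0.05 at 7 days. None of its 4 group means was called. The other probe (A_55_P2074331) read 0.31, 0.23 and 0.12 at 1 day, with a mean of 0.22 (SE 0.0417, 95% interval 0.13 to 0.31) that was called higher (limma adjusted p = 0.0129). The probes had the same sign on 3 of 12 arrays and a correlation of -0.0017 over them. No direction is given for Rxra for that reason.

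Genes that the PPAR receptors are known to switch on were read from lists of 20 PPAR alpha targets and 8 PPAR gamma targets of fatty liver. Of 19 PPAR alpha targets tested, 1 rose and 2 fell at 1 day, 6 rose and 4 fell at 3 days, 5 rose and 5 fell at 7 days, and 5 rose and 1 fell at 14 days. Of all probes, 5.15%, 12.3%, 15.3% and 4.92% were called higher and 4.24%, 11.1%, 14.3% and 3.91% lower in the same groups. The median of the list was -0.07 at 1 day, -0.05 at 3 days, -0.07 at 7 days and 0.19 at 14 days. Called targets lay on both sides of 0 under MgH2, and the 1 called lower under H2-water was among 6 called. Fgf21, a fasting hormone of the list, did not pass the filter on background in any group. With 1 replicate left out of each group, 0 to 1 of the targets were called at 1 day, 3 to 6 at 3 days, 8 to 10 at 7 days and 3 to 5 at 14 days, and with no filter on dim probes 3 were called at 3 days. Cpt1a, which carries fatty acids into mitochondria, was 0.09 at 1 day (not called), and rose by 0.33 at 3 days, 0.42 at 7 days and 0.27 at 14 days. Aldh3a2, a fatty aldehyde dehydrogenase, fell at 3 days (-0.14) and 7 days (-0.23) and rose at 14 days (0.30). Angptl4, an inhibitor of lipoprotein lipase, rose by 0.50 at 3 days and 0.59 at 7 days. Fabp1, the liver fatty acid binding protein, fell by 0.45 and 0.64 on the log2 scale at the same times. Its fall stood beside a rise of Cyp4a14, a fatty acid hydroxylase (0.40 at 3 days). At 14 days Vnn1 (0.48) rose with the peroxisomal oxidation enzyme Ehhadh (0.30). At 1 day the mitochondrial oxidation enzymes Hadha (-0.23) and Acadm (-0.22) fell and Vnn1 rose (0.20). Vnn1 fell at 7 days (-0.34, limma adjusted p = 0.00132), where it was not among the 3 largest called changes of the list. Acaa1b, a peroxisomal thiolase, fell at 7 days (-0.47). Of the PPAR gamma targets, 0 of 7 were called at 1 day. At 3 days 1 of 7 rose, Plin4 (0.90), a coat protein of lipid droplets. At 7 days Plin4 rose (1.02) while the droplet protein Cidea (-1.82, SE 0.583) and the acyltransferase Mogat1 (-0.64) fell. At 14 days 1 of 6 rose, the lipase Lpl (0.48). With 1 replicate left out, 0 to 1 of the PPAR gamma targets were called at 3 days, 0 to 2 at 7 days (0 without replicate 3) and 0 to 1 at 14 days.

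Nr1h3 encodes LXR alpha, a sterol sensor that also drives fatty acid synthesis. Its ratios lay between -0.09 and 0.07 on all 12 arrays, the narrowest span of the 10 receptors. The group means of the counted probe ran from -0.05 to 0.03, and the widest of their 95% intervals reached -0.12 (7 days) and 0.10 (14 days). The other Nr1h3 probe read -0.15, -0.08 and -0.06 at 7 days, a mean of -0.10 that was called lower (limma adjusted p = 0.0448), beside -0.05 (limma adjusted p = 0.226) at the counted probe. The probes followed each other over the arrays (r = 0.88).

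Among LXR targets, the fatty acid synthesis genes fell after 3 and 7 days of MgH2. Of 14 targets tested at 1 day, 1 rose, the sterol exporter Abcg8 (0.22). Of 13 tested at 3 days, 6 fell and 0 rose, beside 11.1% of all probes called lower. Of 13 tested at 7 days, 6 fell and 0 rose, beside 14.3% of all probes called lower. Of 13 tested at 14 days, 0 were called, beside 8.84% of all probes called in either direction. The list's median was -0.05, -0.38, -0.36 and 0.09 in the 4 groups. Fasn, the fatty acid synthase, fell by 1.73 on the log2 scale at 3 days (SE 0.368, limma adjusted p = 0.00924) and by 1.70 at 7 days. Elovl6, a fatty acid elongase, fell by 1.39 and 1.70, and Scd1, the stearoyl-CoA desaturase, by 1.22 and 1.18. Among the rest, which are named here after their values were seen, Srebf1, the transcription factor of that pathway, fell by 0.60 at 3 days and 0.86 at 7 days, and Acaca, which makes malonyl-CoA, fell by 0.76 and 0.85. The called genes outside fatty acid synthesis were Lpcat3, a phospholipid acyltransferase (-0.38 at 3 days), and the sterol exporter gene Abcg1 (-0.36 at 7 days). With each library left out in turn, the count at 3 days fell to between 2 and 5, lowest without replicate 2, and at 7 days it lay between 4 and 7.

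Nr1h4 encodes FXR, the bile acid receptor. Its ratios were 0.12, -0.24 and 0.0047 at 1 day, 0.24, -0.17 and -0.17 at 3 days, and 0.15, -0.12 and -0.02 at 7 days. Replicate 1 lay above 0 and replicate 2 below 0 on each MgH2 day. At 14 days the ratios were -0.17, -0.04 and -0.03, a mean of -0.08 (95% interval -0.28 to 0.13, limma adjusted p = 0.677). Of 11 FXR targets tested, 1 rose at 1 day, 1 rose and 1 fell at 3 days, 1 rose and 3 fell at 7 days, and 0 were called at 14 days, beside 9.39%, 23.4%, 29.5% and 8.84% of all probes called in either direction. Nr0b2, the repressor SHP that FXR induces, fell by 0.55 on the log2 scale at 7 days. Abcb11, the bile salt export pump, fell (-0.17) at 7 days, and Baat, which conjugates bile acids, fell (-0.15) at 3 days. The riser was Slc27a5, a bile acid CoA ligase, at 0.14, 0.12 and 0.18 on the 3 MgH2 days, but averaged over its probes it was -0.0019 at 1 day and -0.026 at 3 days. With 1 replicate left out, 1 to 3 of the targets were called at 7 days.

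Nr1i2 and Nr1i3 encode the drug sensors PXR and CAR. The ratios of Nr1i2 were 0.21, 0.07 and -0.03 at 1 day, 0.26, 0.23 and -0.01 at 3 days and 0.21, 0.32 and -0.39 at 7 days. Replicate 3 was the low array on each MgH2 day. At 14 days they were -0.29, -0.20 and -0.02, all below 0, with a mean of -0.17 (95% interval -0.44 to 0.10, limma adjusted p = 0.431). For Nr1i3 the ratios were 0.15, -0.19 and -0.11 at 1 day, 0.17, 0.27 and 0.06 at 3 days and 0.19, 0.13 and 0.05 at 7 days. All 6 arrays of 3 and 7 days were above 0. The means were 0.17 (95% interval 0.0025 to 0.33, limma adjusted p = 0.131) and 0.12 (95% interval -0.04 to 0.29, limma adjusted p = 0.235), neither called. The other Nr1i3 probe gave 0.19 (limma adjusted p = 0.0604) and 0.18 (limma adjusted p = 0.0631), and followed the counted probe over the arrays (r = 0.92). At 14 days Nr1i3 read 0.16, -0.12 and 0.13. In the Cy5 channel alone, a comparison chosen after seeing the data, Nr1i3 was higher at 7 days than at 1 day by 0.22 (limma adjusted p = 0.0325). The Cy3 channel gave 0.04, and the ratios gave 0.17 (limma adjusted p = 0.34). The share of all probes called in a single channel is not given.

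Several targets of PXR and CAR rose after 3 and 7 days of MgH2. Of 13 tested, 1 rose at 1 day, 5 rose and 1 fell at 3 days, and 5 rose and 0 fell at 7 days, beside 12.3% and 15.3% of all probes called higher at 3 and 7 days. Of 12 tested at 14 days, 0 were called, beside 8.84% of all probes called in either direction. The list's median was 0.08, 0.23, 0.22 and 0.12. Slco1a4, an organic anion importer, rose by 0.52 at 3 days and 0.85 at 7 days. Akr1b7, an aldo-keto reductase, rose by 0.61 and 0.80. Cyp3a11, the main drug-oxidizing P450 induced by PXR, rose by 0.41 at 3 days. Por, which supplies electrons to P450 enzymes, rose by 0.51 at 7 days, and Abcc2, an exporter of conjugates, rose by 0.23 at 1 day. With no filter on dim probes the count at 3 days was 0, and leaving out single replicates it was 0 to 4. At 7 days the count was lowest, at 2, without replicate 3, whose array was alone on its slide and scan day.

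Hnf4a encodes the receptor that maintains hepatocyte identity. On the H2-water arrays its log2 ratios were -0.23, -0.26 and -0.15, and on the MgH2 arrays -0.27, -0.08 and -0.06 at 1 day, 0.01, -0.02 and 0.04 at 3 days and -0.08, 0.03 and 0.17 at 7 days. All arrays of 1 and 14 days were below 0, and those of 3 and 7 days lay on both sides. The mean at 14 days was -0.21 (SE 0.0543, 95% interval -0.34 to -0.09, n = 3), a level 0.862 times the control, which was called (limma adjusted p = 0.0381). The mean at 1 day was -0.14 (95% interval -0.26 to -0.01, limma adjusted p = 0.148). At 14 days the control pools held 457 to 485 ppm and the H2 pools 375 to 430, without overlap. At 1 day, where Hnf4a was not called, they did not overlap either (398 to 441 against 359 to 372). The share of all probes without such overlap is not given. The call at 14 days was lost with each of the 3 replicates left out (-0.19 to -0.25, limma adjusted p 0.11 to 0.179), with normexp background correction (-0.16, limma adjusted p = 0.0605) and with no filter on dim probes (limma adjusted p = 0.0701). Between H2-water at 14 days and MgH2 at 7 days the difference was -0.26 (95% interval -0.43 to -0.09), not called (limma adjusted p = 0.0697).

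Genes that HNF4 alpha is known to drive were called both ways. Of 15 tested, 1 rose and 1 fell at 14 days, beside 8.84% of all probes called in either direction, with a median of -0.13 beside -0.0049 over all probes. The gene that fell was Pck1 (-0.39), which makes glucose from small precursors. Pck1 had risen under MgH2, by 0.31 at 3 days and 0.31 at 7 days. At 1 day 0 of 15 were called, beside 9.39% of all probes. At 3 days 2 rose and 1 fell, beside 23.4% of all probes called in either direction. At 7 days 4 rose and 2 fell, beside 29.5%. Alb, serum albumin, rose by 0.25 and 0.41, the clotting factor gene F7 fell (-0.16) at 3 days, and Apob, the backbone of very low density lipoprotein, fell (-0.34) at 7 days. With 1 replicate left out, the counts were 1 to 2 at 3 days, 2 at 7 days and 1 at 14 days. With normexp 4 rose and 2 fell at 14 days, and with the slide as a random block 2 rose and 3 fell.

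Thrb encodes the main thyroid hormone receptor of the liver, which raises the metabolic rate and cholesterol turnover. Its log2 ratios were 0.17, -0.02 and 0.21 after 1 day of MgH2, -0.09, -0.25 and -0.24 after 3 days, -0.27, -0.18 and -0.27 after 7 days, and 0.06, -0.04 and 0.15 after 14 days of H2-water. All 6 arrays of 3 and 7 days were below 0, and neither group overlapped with the 1 day arrays. Uncalled receptors also showed no overlap, Hnf4a between 3 days and 1 day, and Rxra and Nr1h3 between 7 days and 1 day. The share of all probes without overlap is not given. The mean was -0.19 at 3 days (SE 0.055, 95% interval -0.32 to -0.07, limma adjusted p = 0.0307) and -0.24 at 7 days (SE 0.055, 95% interval -0.36 to -0.12, limma adjusted p = 0.0101), levels of 0.875 and 0.848 times the control. It was 0.12 at 1 day (limma adjusted p = 0.196) and 0.05 at 14 days (limma adjusted p = 0.622). The other Thrb probe gave -0.19 at 3 days (limma adjusted p = 0.0576) and -0.25 at 7 days (limma adjusted p = 0.0151), and followed the counted probe over the arrays (r = 0.91). The call at 3 days was lost without replicate 2 (-0.16, limma adjusted p = 0.158), without replicate 3 (-0.17, limma adjusted p = 0.141) and with no filter on dim probes (limma adjusted p = 0.102). The call at 7 days was lost without replicate 1 (-0.22, limma adjusted p = 0.0581) and without replicate 3 (-0.22, limma adjusted p = 0.0629).

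In the pools themselves, Thrb moved in the H2 channel. Control pools of the MgH2 days held 4.22 to 5.18 ppm. The H2 pools held 4.93 to 5.69 at 1 day, 3.92 to 4.23 at 3 days and 3.58 to 4.45 at 7 days. The H2 pools of 3 and 7 days were thus below all those of 1 day, while the controls spanned about the same range each day. At 14 days the control pools held 4.91 to 5.47 and the H2 pools 5.21 to 5.36.

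**Figure D3:**
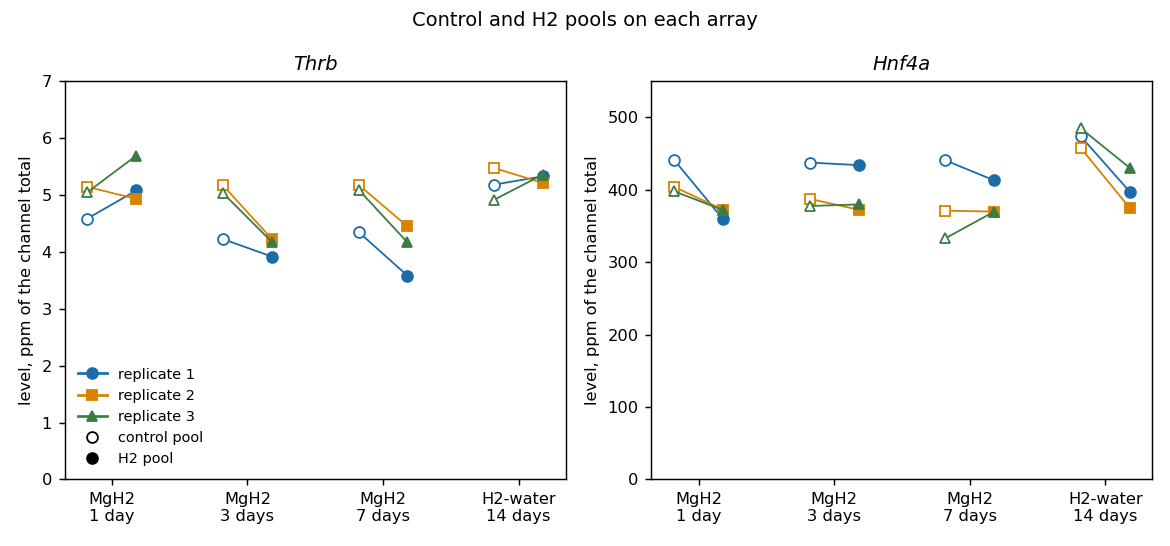
Level of Thrb and Hnf4a in the control pool (open) and H2 pool (filled) of each array, in ppm of the channel total (y axis from 0), by group (x axis). A line joins the pools of 1 array. Every Thrb line falls at 3 and 7 days, and every Hnf4a line falls at 1 day and 14 days.

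Differences between the groups were tested as contrasts of the same fit. Between 7 days and 1 day of MgH2, 1 of 10 receptors was called, beside 6.98% of all probes. This was Thrb, lower at 7 days (difference -0.36, SE 0.0777, 95% interval -0.53 to -0.19, limma adjusted p = 0.027), with -0.33 (limma adjusted p = 0.0516) at the other probe. The call was lost without replicate 1 (-0.32, limma adjusted p = 0.169), without replicate 2 (-0.46, limma adjusted p = 0.0593) and without replicate 3 (-0.30, limma adjusted p = 0.184). With the slide as a fixed block it was -0.18 (limma adjusted p = 0.695). All 1 day arrays and 1 array of 3 days shared a slide, where Thrb at 3 days lay -0.21 from 1 day, and the slide with 2 arrays each of 3 and 7 days gave 0.02 for 7 days minus 3 days. No slide held both 1 and 7 day arrays. In the Cy5 channel alone, a comparison chosen after seeing the data, the Thrb difference between 7 days and 1 day was -0.32 (limma adjusted p = 0.0232). The Cy3 channel gave 0.03, and the share of all probes called in a single channel is not given.

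Between 3 days and 1 day, limma called 0 of 10 receptors, beside 0.0208% of all probes, and Thrb was the 1 receptor with an unadjusted p under 0.05 (-0.31, limma adjusted p = 0.117). Between 7 and 3 days it called 0 receptors beside 0% of all probes, and 0 receptors had an unadjusted p under 0.05. Between H2-water at 14 days and MgH2 at 7 days it called 0 of 10, beside 6.61% of all probes, and Thrb, Hnf4a and Rxra had an unadjusted p under 0.05. Thrb was higher at 14 days by 0.29 (95% interval 0.12 to 0.46), with a limma adjusted p of 0.0522. Ppara and Pparg were 0.42 and 0.41 higher, with limma adjusted p of 0.263 and 0.216.

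**Figure D4:**
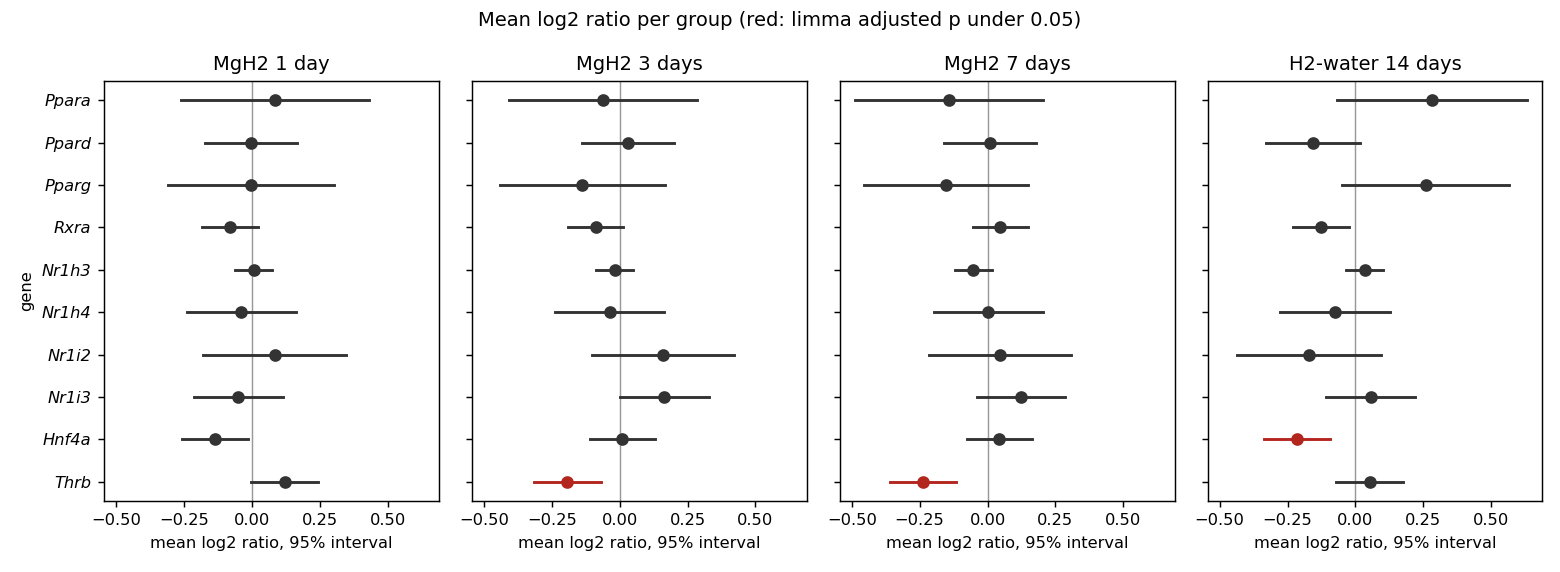
Mean log2 ratio (point, x axis) and its 95% interval from limma (line) of the 10 receptors (y axis) in the 4 groups, over 3 arrays each. Red marks a limma adjusted p under 0.05, reached by Thrb at 3 and 7 days of MgH2 and by Hnf4a at 14 days of H2-water.

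Few thyroid hormone targets of the liver were listed. Of 7 tested, 0 were called at 1 day, 1 rose and 2 fell at 3 days, 1 rose and 2 fell at 7 days, and 1 fell at 14 days, beside 23.4%, 29.5% and 8.84% of all probes called in either direction at 3, 7 and 14 days. Me1, the malic enzyme that makes NADPH for lipid synthesis, fell by 0.59 and 0.53 on the log2 scale at 3 and 7 days. Gpd2, the mitochondrial glycerol phosphate dehydrogenase, fell by 0.30 and 0.31. The gene that rose at 3 and 7 days and fell at 14 days was Pck1, which the HNF4 alpha list also holds. The list's median was 0.06, -0.30, -0.31 and 0.04 in the 4 groups. With each replicate left out in turn, the counts were 0 to 1 at 3 days and 0 to 2 at 7 days, with 0 called without replicate 2.

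Other receptors and the coregulators they recruit were described for context. Of 20 other nuclear receptors tested, 0 were called at 1 day, 2 fell at 3 days, 4 fell at 7 days, 1 fell at 14 days and 0 rose. Nr3c1, the glucocorticoid receptor, fell in 3 groups, with -0.23 at 3 days, -0.28 at 7 days and -0.20 at 14 days. Nr1h2, the other LXR gene, fell (-0.15) at 3 days. Nr5a2, a regulator of bile acid synthesis, fell (-0.26) at 7 days, as did Nr0b2, which the FXR list also holds. Of the coregulators, 3 of 17 rose at 1 day, 3 of 17 rose at 3 days, 6 of 17 rose and 1 fell at 7 days, and 1 of 16 rose at 14 days. Of all probes, 9.39%, 23.4%, 29.5% and 8.84% were called in either direction in these groups. By direction, 5.15%, 12.3%, 15.3% and 4.92% were called higher and 4.24%, 11.1%, 14.3% and 3.91% lower. Ppargc1a, the coactivator PGC-1 alpha, was 0.07 at 1 day and -0.0098 at 14 days, uncalled, and rose by 0.58 at 3 days (limma adjusted p = 0.033) and 0.77 at 7 days (limma adjusted p = 0.00768). Lpin1, a phosphatidate phosphatase that also works with PGC-1 alpha, rose by 0.67 and 0.68. Crebbp, a histone acetyltransferase, rose (0.24) at 1 day. The coactivator gene Ncoa2 rose (0.17 at 1 day and 0.15 at 14 days), and Tbl1x, of the corepressor complex, fell (-0.18) at 7 days. With no filter on dim probes 0 coregulators were called at 1 and 3 days. With 1 replicate left out, 2 to 4 coregulators and 1 to 2 of the other receptors were called at 7 days.

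**Figure D5:**
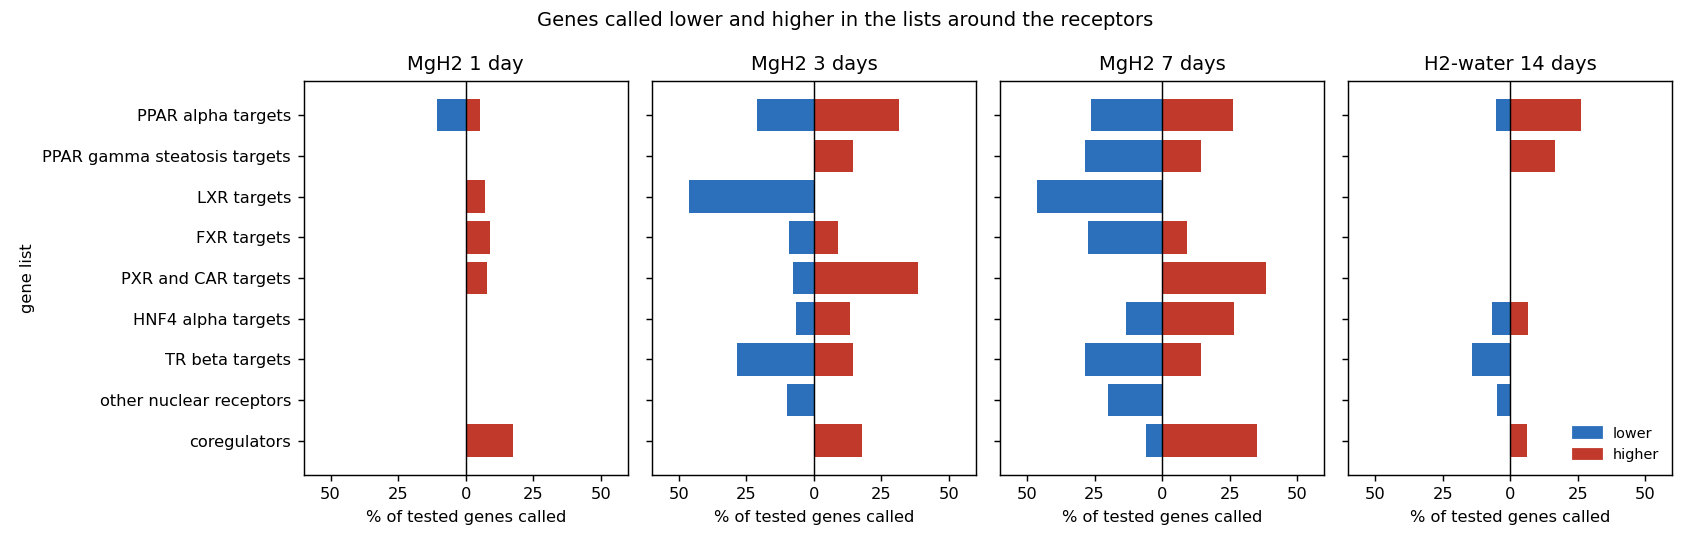
Share of the tested genes of each list called lower (left, blue) or higher (right, red) by limma (x axis, % of tested genes) for 9 gene lists (y axis) in the 4 groups. The LXR targets extend only to the lower side at 3 and 7 days (6 of 13 each), and the PXR and CAR targets mostly to the higher side (5 of 13 each).

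Directions were affected by the scaling of the dyes. Of the probes called, 54.9% were higher at 1 day, 52.6% at 3 days, 51.7% at 7 days and 55.7% at 14 days. With each channel divided by its own total these shares were 31.2%, 38.4%, 41.5% and 40.2%, and with normexp correction 64.5%, 55.3%, 53.3% and 65.6%. The median of all probes moved by less than 0.1 on the log2 scale under each of these scalings, and Thrb stayed below 0 at 3 and 7 days and Hnf4a below 0 at 14 days under each.

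Markers of the cell types in the tissue moved with the 3 and 7 day groups. Among all probes, 12.3% were called higher and 11.1% lower at 3 days, and 15.3% and 14.3% at 7 days. In either direction, 9.39% of all probes were called at 1 day and 8.84% at 14 days. Of 8 hepatocyte markers tested, 4 rose at 3 days and 6 rose at 7 days, while 0 were called at 1 day. The summed level of the 7 with a value on every array was 5846 to 6321 ppm in control and 6912 to 7191 in H2 pools at 3 days, and 5883 to 6678 against 7165 to 8163 at 7 days. At 1 day the ranges overlapped (6438 to 6548 against 6075 to 6610), as at 14 days (5852 to 6136 against 5762 to 6407), where 0 of 7 were called. Of 6 macrophage and leukocyte markers tested, 1 fell at 1 day, 1 rose and 2 fell at 3 days, 3 fell at 7 days and 1 fell at 14 days. The Kupffer cell genes Clec4f (-0.45) and Cd5l (-0.47) were among those that fell at 7 days. The summed level of the 7 macrophage and leukocyte markers with a probe was 103 to 116 ppm in control and 75.1 to 81.5 in H2 pools at 7 days. Of the adipocyte markers, Adipoq, Plin1 and Lep were not above background on any array, and 1 of 3 tested, Cfd, fell at 7 days (-2.42). Stellate cell markers fell in 2 of 5 at 3 and at 7 days, endothelial markers were called both ways (2 rose and 1 fell of 6 at 3 days), and cholangiocyte, pancreas acinar and red blood cell markers had at most 1 call in a group. These shifts stood beside the lower Thrb of 3 and 7 days and the changes of the target lists, and their part in them was not tested. In whole liver, fewer cells of a type and less RNA per cell cannot be told apart.

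The genes whose ratios were most like each receptor over the 12 arrays were searched among 11551 genes above background, as a description in which arrays of the MgH2 days may share controls. Ppara was followed most closely by Nr1h5, another nuclear receptor gene (r = 0.97), and Sspn (r = 0.97). Pparg was followed by 4931406C07Rik and Fam126a (r = 0.95 each). Thrb was followed by Spns2 and Ldhd (r = 0.93 each), Hnf4a by Ggh (r = 0.95) and Fh1 (r = 0.94), and Nr1i3 by Tmem60 (r = 0.96) and Gpt (r = 0.91). For Nr1h3 these were Snrpg (r = 0.94) and Elp3 (r = 0.92), for Nr1h4 Cnst (r = 0.92) and Ndufaf4 (r = 0.91), and for Rxra Rif1 (r = 0.91) and Pcif1 (r = 0.89). The likeness was weaker for Ppard, with Gpatch4 (r = 0.88) and Klhdc10 (r = 0.87), and for Nr1i2, with Lhfpl4 (r = 0.84) and Noc3l (r = 0.83). Among the receptors, Ppara and Pparg were the most alike (r = 0.89), and Hnf4a ran opposite to both (r = -0.79 with Ppara and -0.78 with Pparg).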

How the data were processed

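Liver RNA pools were hybridized to 12 Agilent two-colour arrays. Per the labels, signals were read with Agilent Feature Extraction 10.10.1, while the file headers give version 10.7.3.1 for H2-water and 10.10.1.1 for MgH2. The deposited processed intensities are background-subtracted and dye-normalized within each array. The deposited files also hold a log10 ratio (Cy5 to Cy3), which Feature Extraction derives from those intensities, and the deposited series table holds log2 ratios that match it within 1.4e-06.

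Here, log2 of the processed Cy5 over Cy3 intensity was taken, spots marked as outliers were left out (160 to 244 per array) and the spots of a probe were averaged. A symbol was found for 26761 probes (67.9%) through their RefSeq record. Group means and their contrasts were fitted with limma 3.58.1 in R 4.3.3 over the probes that exceeded background for both dyes on every array compared. The receptors, gene lists and tests were chosen with earlier results of these data known. In each list, up to 3 called genes of largest change per group are named, with 4 genes that the study names, and some named by this rule are not reported here. The fit was tested on simulated data of 18397 probes, where 200 probes changed 1.5-fold were recovered at 77.5% (7 days) to 88.5% (14 days). In these 2 groups 7 and 18 unchanged probes were called. The simulated noise was independent between arrays, and 1.5-fold exceeds the largest receptor group mean (1.22-fold, Ppara at 14 days). The recovery thus does not tell how often changes of the size seen in the receptors would be called. Replicates are pools of 3 mice, and their number limits the precision. Same-numbered ratios of the MgH2 days deviated together (r from 0.37 to 0.65 over 9 pairs), so replicate numbers count as pairs there, and not with H2-water (r from -0.04 to 0.29); the reported fit has no replicate term, and one with it was an alternative. Alternatives changed the scaling, background correction, filters, probe choice, test, slide and replicate terms and the arrays used. Levels in ppm are a probe's share of its channel total, and levels of different probes are not compared.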

Additional observations from a re-analysis of the deposited data

Results flagged for a closer look

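In the reported fit, the change of Thrb under MgH2 differed between days. On the log2 scale the ratio of H2 over control was lower at 7 days than at 1 day (difference -0.36, SE 0.0777, limma adjusted p = 0.027), from 0.12 at 1 day to -0.24 at 7 days. The 3 arrays of 7 days lay below the 3 of 1 day, as they did for Nr1h3, which was not called. The lower Thrb at 7 days stood beside higher hepatocyte markers and lower macrophage markers in the same pools, and their part in it was not tested. With the slide as a fixed block the difference was -0.18 (limma adjusted p = 0.695), and no slide held both 1 and 7 day arrays. The call was lost with each replicate left out in turn (limma adjusted p 0.0593 to 0.184) and with no filter on dim probes. The other Thrb probe gave -0.33 (limma adjusted p = 0.0516).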

How the results depend on the processing

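Counts of receptors called were as reported with each channel divided by its total, outlier spots kept, probes of a gene averaged, the series table and the slide as a random block. With no filter on dim probes, 0 receptors were called at 3 days, 14 days and for 7 days minus 1 day, and 1 (Thrb) for 14 minus 7 days, and with arrays centred on their median 1 for the latter. With normexp 0 were called at 14 days. With only the arrays of the group fitted, 0 were called at 3, 7 and 14 days. The methods' t-test after Benjamini-Hochberg adjustment gave 0 at 3, 7 and 14 days, and unadjusted it gave 1 at 1 day, 0 at 3 days, 0 at 7 days and 4 at 14 days. The 4 at 14 days were Ppara, Pparg, Rxra and Hnf4a. With replicates left out in turn the count was 0 to 1 at 3 and 7 days, and 0 in each case at 14 days and for 7 minus 1 day. In comparisons of a single channel, chosen after seeing the data, the Cy5 channel called 3 receptors for 7 minus 1 day (Thrb, Ppara and Nr1i3) and the Cy3 channel 0, with Thrb at 0.029. The slide as a fixed block called 0 for 7 minus 1 day and could not be fitted for 14 minus 7 days. The replicate block called the same number as without it among the MgH2 days (Thrb, 7 minus 1 day, -0.36, limma adjusted p = 0.022). For 14 minus 7 days, where samples share only a number, the replicate block called 3 in place of 0, namely Pparg (0.41, limma adjusted p = 0.0114), Hnf4a (-0.26, limma adjusted p = 0.0274) and Thrb (0.29, limma adjusted p = 0.0371). The share of all probes called is not given for the t-tests, the single channels and the replicate block. Their counts are therefore not read as results about the receptors. Averaged over its probes, Slc27a5 was -0.0019 at 1 day and -0.026 at 3 days. The cause of these shifts was not tested. For the called list genes chosen by the naming rule, 109 of the values with a replicate left out lost their call and 101 kept it.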
